A study of Mus musculus with 8 samples.

Results

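The genes described here make and handle retinoic acid, and were followed in cultured kidney tubular epithelial cells of mice with and without Aldh2. They comprised the retinaldehyde dehydrogenases Aldh1a1, Aldh1a2 and Aldh1a3, the close relative Aldh1a7, the retinol and retinaldehyde oxidoreductases Rdh10 and Dhrs3, the retinoic acid binding protein gene Crabp2, the receptor gene Rarb and the retinol uptake receptor gene Stra6. They were chosen by symbol, after an earlier look at these data had shown large differences in Aldh1a1 and Aldh1a3, and all 9 of the 9 were among the 14145 genes of the table. Their values in the comparison of knockout with control are therefore given as a description, and limma counts for them are not read as a test.

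Primary tubular epithelial cells were isolated from kidneys of Aldh2Ctrl mice (4 libraries, titled WT) and of Aldh2TEC-KO mice (4 libraries, titled KO), grown in DMEM/F12 with serum and left untreated. Both groups were cultured alike, and Aldh2 was the only gene named as deleted. The sources used here do not give the driver of the deletion, the strain or the age of the mice. Whether the libraries stem from separate animals is not stated, and errors and p-values therefore describe the spread of these libraries only, part of which may be technical. The genotype label of the 4 knockout samples runs from ALDH2 knockout to ALDH5 knockout, and groups were taken from the titles.

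Retinoic acid is made from vitamin A in a pair of oxidations: retinol is turned into retinaldehyde by dehydrogenases such as Rdh10, reversibly opposed by Dhrs3, and retinaldehyde is oxidised irreversibly to retinoic acid by the Aldh1a enzymes. Retinoic acid then binds receptors of the RAR family, which sit with RXR partners on response elements in DNA, and it is broken down by Cyp26 enzymes. In the embryonic kidney, retinoic acid made in the stroma drives growth of the ureteric tree, and Dhrs3, Rarb, Crabp2, Stra6 and the Cyp26 genes are themselves known retinoic acid targets in many tissues. Aldh2, the gene deleted here, belongs to the same enzyme superfamily but works in mitochondria on acetaldehyde and lipid-derived aldehydes.

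Values are FPKM, that is reads scaled to gene length and library depth, at recovered depths of 17050000 to 17760000 in the controls and 17890000 to 18760000 in the knockouts. Aldh2 itself ranged from 23.69 to 31.08 FPKM among controls and from 0.88 to 1.64 among knockouts, matching the titles. Xist and Y-linked transcripts marked knockout 1 and 2 as female and the remaining 6 libraries as male. The male knockouts 3 and 4 lay below every control in each Y-linked transcript used, with Ddx3y at 1.48 and 4.39 FPKM against 6.15 to 15.51 FPKM. The cause was not tested. Knockout 3 and 4 also stood apart in mitochondrially encoded transcripts, which summed to 4236 and 5033 FPKM there against 11690 to 21741 FPKM in the other 6 libraries. The tubular transcription factor gene Pax8, listed here with podocyte and parietal cell markers, was at 12.14 to 44.2 FPKM in every library. Of the 8 markers on that list 6 were measured, with summed levels of 168 to 238 FPKM in the controls and 110 to 176 FPKM in the knockouts. Cldn1 had the highest mean of them, 121 FPKM in the controls and 71.3 FPKM in the knockouts. Of 10 proximal tubule markers 5 were measured, with summed levels of 12.7 to 41.1 FPKM in the controls and 4.55 to 32.1 FPKM in the knockouts, and the brush-border transporter genes Slc34a1, Slc5a2 and Slc5a12 were not among the genes analysed here.

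The control cultures carried 3 of the 9 genes at above 45 FPKM in each library. On this per-length scale Rdh10 came first at 109 ± 38.6 FPKM, followed by Aldh1a2 at 76.5 ± 15.0 and Dhrs3 at 54.4 ± 11.2 FPKM (SD, n = 4). Stra6 followed at 4.38 ± 1.47, Aldh1a3 at 2.06 ± 1.92 and Rarb at 1.28 ± 0.378 FPKM. Crabp2 at 0.905 ± 0.609, Aldh1a1 at 0.891 ± 0.595 and Aldh1a7 at 0.675 ± 0.285 FPKM closed the order. Neighbours in this order overlapped library by library, with the exceptions of Dhrs3 and Stra6, whose ranges (45.38 to 70.23 and 3.02 to 6.45 FPKM) lay far apart.

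**Figure D1:**
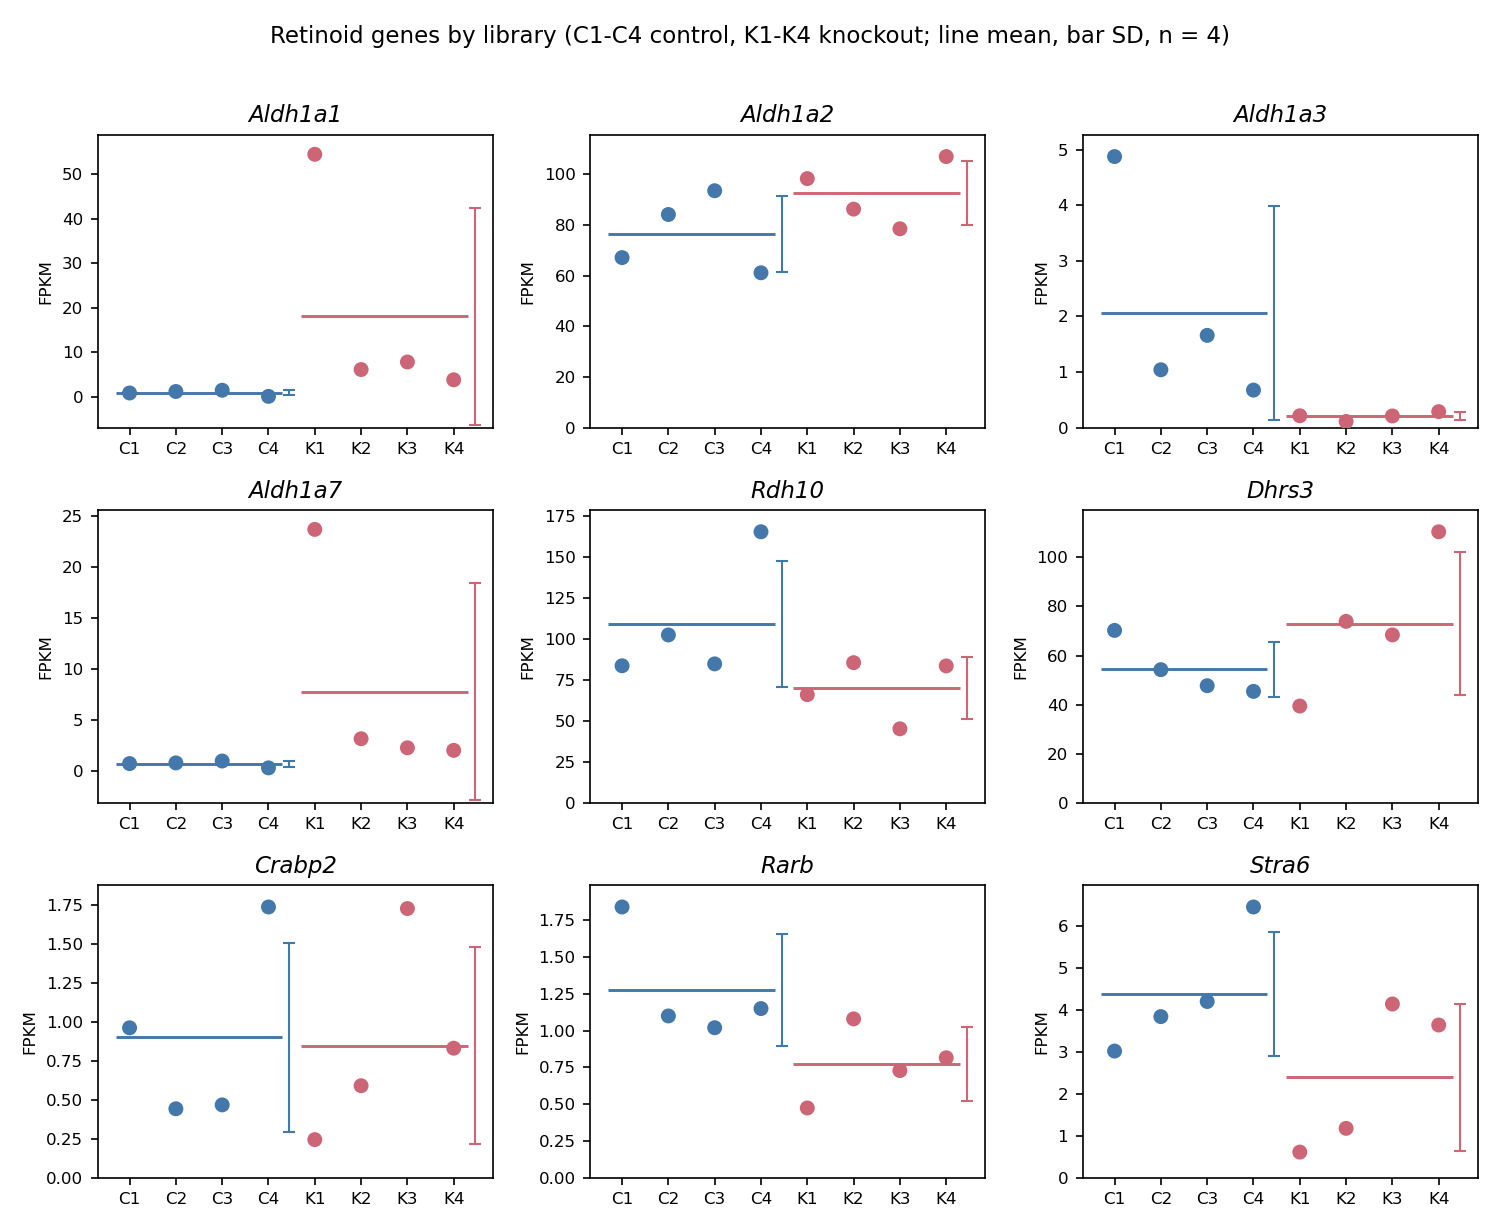
FPKM of the 9 retinoid genes in each library (C1 to C4 control, K1 to K4 knockout); the horizontal line is the group mean and the bar beside it the SD of 4 libraries. Aldh1a1 and Aldh1a7 are higher in all 4 knockout libraries, with knockout 1 far above the rest at 54.42 and 23.71 FPKM, and Aldh1a3 is lower in all 4.

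The clearest differences lay in the Aldh1a enzymes, and went in both directions. Aldh1a1 and Aldh1a7 were higher in every knockout library than in any control, Aldh1a3 was lower in every knockout library, and Aldh1a2 overlapped. Groups that do not overlap were thus seen for 3 of the 9 genes, 2 higher and 1 lower, beside 11.6% of all 14145 genes (4.76% higher and 6.86% lower in the knockouts). As these genes had been chosen with the differences known, nothing is read from that share. In limma, with Benjamini-Hochberg adjustment over all genes, 0 of the 9 had an adjusted p below 0.05 (background 0.0778% of genes). An unadjusted p below 0.05 was seen for 3 (background 19.2%), and limma-voom on recovered reads also called 0. Among the male libraries alone limma called 2 of the 9, Aldh1a1 and Aldh1a7, beside 44.4% of all genes. These counts too are a description, for the same reason. In bulk libraries, fewer cells of a type and less RNA per cell cannot be told apart.

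Aldh1a1, the cytosolic retinaldehyde dehydrogenase that is abundant in liver and in several adult epithelia, was at a low level in the controls. Its deposited row (ENSMUSG00000053279, GRCm38 chromosome 19, 20492715 to 20643462, plus strand) read 0.845, 1.18, 1.46 and 0.0818 FPKM across controls 1 to 4, from 72, 99, 128 and 7 reads. Across knockouts 1 to 4 it read 54.42, 6.11, 7.80 and 3.81 FPKM, from 4944, 539, 722 and 341 reads. Knockout 1 stood at several times the level of any other library, and the lowest knockout still lay above the highest control. The means were 0.891 and 18.0 FPKM, a 20.2-fold ratio, with an SD of 24.3 FPKM in the knockouts. Without knockout 1 the knockout mean was 5.90 FPKM and the ratio 6.63-fold, and the medians of all libraries, 1.01 and 6.95 FPKM, differed 6.88-fold. On the log2(FPKM + 1) scale the difference was 2.65 (SE 0.67) over all libraries. It was 1.85 among the male libraries alone, which leave out knockout 1 and 2, and 3.46 without knockout 3 and 4.

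The Aldh1a1 row covers more than the coding transcript compared below. The gene model of GENCODE M21 joins 6 transcripts over 4934 exonic bases, of which 1403 lie between positions 20492715 and 20556410. RefSeq places a separate noncoding gene, E030003E18Rik, in that same interval, and the description in the deposited row names it in place of the dehydrogenase. RefSeq's own protein-coding Aldh1a1 runs from 20492583 to 20643463, so it spans this interval as well. The coding transcript compared below has 2358 bases. Reads are summed over the row, so how many came from the coding exons cannot be read from the table, and the length that FPKM divides by exceeds that of this transcript.

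Aldh1a7, a mouse gene next to Aldh1a1 whose enzyme resembles Aldh1a1 closely but is known for little activity on retinaldehyde, lies in the opposite orientation (ENSMUSG00000024747, chromosome 19, 20692953 to 20727562, minus strand) with 2066 exonic bases. It read 0.701, 0.767, 0.954 and 0.279 FPKM across controls 1 to 4, from 25, 27, 35 and 10 reads. Across knockouts 1 to 4 it read 23.71, 3.14, 2.25 and 2.00 FPKM, from 902, 116, 87 and 75 reads. As with Aldh1a1, knockout 1 was highest, control 4 was lowest and the groups did not overlap. The means were 0.675 and 7.77 FPKM, an 11.5-fold ratio, and without knockout 1 the ratio was 3.65-fold. The log2 difference was 1.76 (SE 0.60) over all libraries, 0.91 among the male libraries alone and 2.61 without knockout 3 and 4.

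The coding sequences of the pair are shown because reads could be shared between them. Over the 1503 coding bases of each in GENCODE M21, 1377 were identical and 126 differed (91.6% identity), whereas Aldh1a1 shared 70.0% with Aldh1a2, 68.6% with Aldh1a3 and 66.3% with Aldh2. The first 150 coding bases hold 10 differences, printed in capitals.
Aldh1a1: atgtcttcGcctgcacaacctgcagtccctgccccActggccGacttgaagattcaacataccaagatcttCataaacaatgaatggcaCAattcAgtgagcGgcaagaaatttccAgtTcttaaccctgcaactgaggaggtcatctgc
Aldh1a7: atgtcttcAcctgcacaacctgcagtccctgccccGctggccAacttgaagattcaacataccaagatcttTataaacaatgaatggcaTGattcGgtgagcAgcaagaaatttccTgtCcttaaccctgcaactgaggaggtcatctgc
Of all 50-base windows of the Aldh1a7 transcript 7.5% also occur in the Aldh1a1 transcript compared, of 100-base windows 0.1%, and the longest shared run is 100 bases. The sources used here give neither the read length nor the handling of reads that fit both genes, so the split of reads between the pair is uncertain.

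The ratio of reads on the Aldh1a1 row to those on Aldh1a7 was 2.88, 3.67, 3.66 and 0.700 across controls 1 to 4 and 5.48, 4.65, 8.30 and 4.55 across knockouts 1 to 4. All 4 knockouts lay above all 4 controls in this ratio, and control 4, with 7 and 10 reads, was the lowest. Per length, the same ratio of FPKM was 0.293 to 1.54 in the controls and 1.90 to 3.47 in the knockouts.

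**Figure D2:**
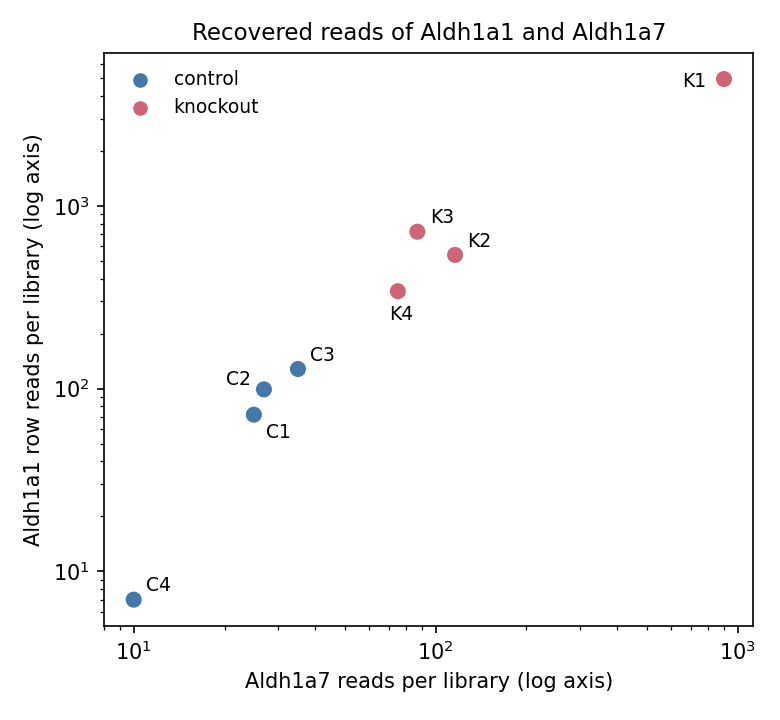
Recovered reads of the Aldh1a1 row against those of Aldh1a7 in each library, both on log axes (C1 to C4 control, K1 to K4 knockout). The points run together from control 4 (10 and 7 reads) to knockout 1 (902 and 4944 reads), and the knockouts lie above and to the right of the controls.

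The stretches before the start sites of the pair are also alike, and are shown because the genes move together across the libraries. Each window is the 250 bases before a RefSeq start (GRCm38.p6), read 5′ to 3′ on the gene's strand. The windows lie at chr19:20601718-20601967 for a coding messenger of Aldh1a1 (plus strand) and at chr19:20727557-20727806 for Aldh1a7 (minus strand). Capitals mark the longest run the windows share, 65 bases at positions -94 to -30 in both.
Aldh1a1: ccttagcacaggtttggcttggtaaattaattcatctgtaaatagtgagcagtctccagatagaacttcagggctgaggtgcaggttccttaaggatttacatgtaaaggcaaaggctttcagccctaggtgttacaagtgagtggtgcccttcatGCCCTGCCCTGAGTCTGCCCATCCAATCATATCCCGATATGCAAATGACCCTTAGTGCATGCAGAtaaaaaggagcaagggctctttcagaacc
Aldh1a7: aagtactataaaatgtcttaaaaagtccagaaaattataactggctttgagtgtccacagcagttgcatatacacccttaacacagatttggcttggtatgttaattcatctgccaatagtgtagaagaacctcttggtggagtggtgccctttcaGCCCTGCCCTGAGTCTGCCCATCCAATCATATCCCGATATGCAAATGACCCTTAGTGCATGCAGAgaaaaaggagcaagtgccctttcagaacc
In the best local alignment of the windows 173 of 233 aligned bases were identical (74.2%). This describes the reference sequence, and no measurement of binding or chromatin was made here. RefSeq lists a further Aldh1a1 start, with its window at chr19:20492333-20492582, which was not compared with that of Aldh1a7.

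Aldh1a3, a retinaldehyde dehydrogenase that in the developing kidney marks the ureteric bud lineage, went the other way (ENSMUSG00000015134, chromosome 7, 66390890 to 66427517, minus strand). It read 4.88, 1.04, 1.66 and 0.674 FPKM across controls 1 to 4, from 389, 82, 136 and 54 reads. Across knockouts 1 to 4 it read 0.212, 0.109, 0.208 and 0.286 FPKM, from 18, 9, 18 and 24 reads. All knockouts lay below all controls, and control 1 lay well above the other 3 controls. The means were 2.06 ± 1.92 and 0.204 ± 0.0728 FPKM (SD, n = 4), a 10.1-fold ratio, and the ratio was 5.52-fold without control 1 (log2 difference -1.17, SE 0.34). In the authors' deposited table Aldh1a3 is the only one of the 9 genes with a mark, down, at a log2 fold change of -3.21 and an adjusted p of 0.646.

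Control 1 was also high in stromal transcripts, and Aldh1a3 followed some of them. Of 10 fibroblast and pericyte markers 7 were measured, none of them listed at 0, with summed levels of 138 to 1186 FPKM in the controls and 594 to 1766 FPKM in the knockouts. That sum is mostly Acta2, the smooth muscle actin gene. The pericyte receptor gene Pdgfrb read 17.25, 3.62, 5.41 and 4.38 FPKM across controls 1 to 4 and 0.65, 1.35, 2.62 and 1.75 FPKM across knockouts 1 to 4, and so kept the groups apart in the same direction as Aldh1a3. Of the 7 markers, 5 had a lower knockout mean. For 2 of these, Pdgfrb and Col3a1, the groups did not overlap, as for 6.86% of all genes in that direction. Acta2 (440 and 1044 FPKM) and Thy1 (0.798 and 0.951 FPKM) had higher knockout means. Pdgfra, Dcn and Lum were not among the genes analysed here. The part of stromal cells in the Aldh1a3 values was not tested.

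Aldh1a2, the main retinaldehyde dehydrogenase of the embryo and a gene of stroma and mesothelium, supplied most of the Aldh1a FPKM in every library (ENSMUSG00000013584, chromosome 9, 71215789 to 71296243, plus strand). It read 67.11, 84.13, 93.52 and 61.11 FPKM across controls 1 to 4 and 98.31, 86.26, 78.49 and 107.01 FPKM across knockouts 1 to 4. The groups overlapped, with knockout 3 below control 2 and 3. The means were 76.5 ± 15.0 and 92.5 ± 12.6 FPKM (SD, n = 4; log2 difference 0.28, SE 0.20). Of 5 mesothelial markers 3 were measured, none at 0, with summed levels of 95.1 to 289 FPKM in the controls and 52.1 to 670 FPKM in the knockouts. By library the mesothelial sum was 135, 211, 289 and 95.1 FPKM across controls 1 to 4, the same order as Aldh1a2. It was 159, 52.1, 670 and 297 FPKM across knockouts 1 to 4, with the highest sum in knockout 3, where Aldh1a2 was lowest among the knockouts. Most of the sum was Krt19, a keratin gene, at 127.64, 176.49, 235.54 and 72.5 FPKM across controls 1 to 4. Msln and Upk3b did not follow the order of Aldh1a2 in the controls and were lowest in control 1, at 6.49 and 1.21 FPKM. The part of mesothelial cells in the Aldh1a2 values was not tested.

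Summed over the 4 genes, Aldh1a transcript came to 73.5, 87.1, 97.6 and 62.1 FPKM across controls 1 to 4 and to 177, 95.6, 88.7 and 113 FPKM across knockouts 1 to 4. Only knockout 1 and 4 lay above every control. Aldh1a2 made up 91.3% to 98.3% of the sum in the controls and 55.7%, 90.2%, 88.4% and 94.6% across knockouts 1 to 4. Aldh1a1 made up 0.132% to 1.5% in the controls and 30.8%, 6.39%, 8.79% and 3.37% across knockouts 1 to 4. These shares are of FPKM, and the Aldh1a1 row is scaled by 4934 bases, more than its coding transcript. In reads, knockout 1 had 4944 on the Aldh1a1 row and 4098 on Aldh1a2. Transcript shares say nothing of the enzymes' amounts or activities, which were not measured.

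**Figure D3:**
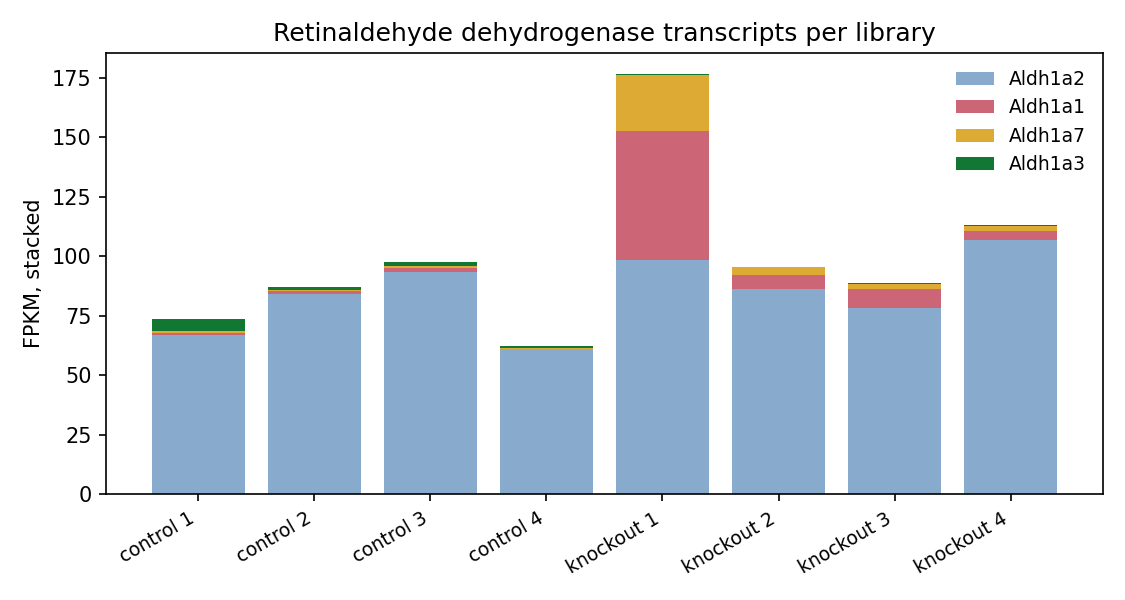
Stacked FPKM of the 4 Aldh1a genes in each library, with Aldh1a2 at the base. On this per-length scale Aldh1a2 is the largest share in all 8 libraries (61.11 to 107.01 FPKM). The added height of knockout 1 comes from Aldh1a1 (54.42 FPKM) and Aldh1a7 (23.71 FPKM), the Aldh1a1 row being scaled by 4934 bases.

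The enzymes of the step before, between retinol and retinaldehyde, were abundant and overlapped between the groups. Rdh10, the retinol dehydrogenase that sets the supply of retinaldehyde in the embryo (ENSMUSG00000025921, chromosome 1, 16105774 to 16133734, plus strand), read 83.67, 102.50, 84.83 and 165.54 FPKM across controls 1 to 4 and 66.03, 85.57, 45.16 and 83.59 FPKM across knockouts 1 to 4. Its means were 109 ± 38.6 and 70.1 ± 18.8 FPKM (SD, n = 4; log2 difference -0.62, SE 0.28), with control 4 the highest and knockout 2 above control 1 and 3. Dhrs3, which reduces retinaldehyde back to retinol (ENSMUSG00000066026, chromosome 4, 144892827 to 144928209, plus strand), read 70.23, 54.23, 47.69 and 45.38 FPKM across controls 1 to 4 and 39.41, 73.92, 68.40 and 110.44 FPKM across knockouts 1 to 4. Its means were 54.4 ± 11.2 and 73.0 ± 29.2 FPKM (SD, n = 4; log2 difference 0.35, SE 0.30), and knockout 1 was the lowest library of all. The FPKM ratio of Rdh10 to Dhrs3 was 1.19, 1.89, 1.78 and 3.65 across controls 1 to 4 and 1.68, 1.16, 0.660 and 0.757 across knockouts 1 to 4. Knockout 2, 3 and 4 lay below every control in this ratio and knockout 1 among the controls.

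Stra6, the membrane receptor that takes up retinol from its carrier in blood, split the knockouts (ENSMUSG00000032327, chromosome 9, 58063788 to 58153996, plus strand). It read 3.02, 3.84, 4.20 and 6.45 FPKM across controls 1 to 4 and 0.615, 1.18, 4.14 and 3.64 FPKM across knockouts 1 to 4. Knockout 1 and 2, the female libraries, lay below every control, and knockout 3 and 4, the male libraries, lay among the controls. The log2 difference was -0.79 (SE 0.38) over all libraries, -0.10 among the male libraries alone and -1.48 without knockout 3 and 4. Distal tubule and collecting duct markers, 6 of 10 measured and none at 0, were lowest in the same pair of libraries, with summed levels of 33.9 to 51.9 FPKM in the controls and of 10.3, 11.1, 36.4 and 25.5 FPKM across knockouts 1 to 4. Knockout 4 lay below every control in that sum but not in Stra6, and single markers such as Trpm6 and Gata3 had other orders among the knockouts. The part of those cells in the Stra6 values was not tested, and sex cannot be told apart from what else sets knockout 3 and 4 apart.

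The binding protein and the receptor were low in all libraries. Crabp2, which carries retinoic acid to the nucleus (ENSMUSG00000004885, chromosome 3, 87948666 to 87953376, plus strand), read 0.964, 0.444, 0.469 and 1.74 FPKM across controls 1 to 4 and 0.246, 0.592, 1.73 and 0.833 FPKM across knockouts 1 to 4, from 6 to 43 reads. The groups covered the same range (log2 difference -0.05, SE 0.29). Rarb, the retinoic acid receptor beta gene (ENSMUSG00000017491, chromosome 14, 16430839 to 16819156, minus strand), read 1.84, 1.10, 1.02 and 1.15 FPKM across controls 1 to 4 and 0.475, 1.08, 0.729 and 0.816 FPKM across knockouts 1 to 4, from 46 to 167 reads. Control 1 was the highest and knockout 2 lay among the other controls, so the groups overlapped (means 1.28 ± 0.378 and 0.776 ± 0.251 FPKM, SD, n = 4; log2 difference -0.36, SE 0.18).

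Rarb carries the textbook response element of this pathway, and its window is shown for that reason. The 250 bases before its RefSeq start (GRCm38.p6, chr14:16575477-16575726, minus strand, inside the span of the deposited row) read, with the element in capitals:
Rarb: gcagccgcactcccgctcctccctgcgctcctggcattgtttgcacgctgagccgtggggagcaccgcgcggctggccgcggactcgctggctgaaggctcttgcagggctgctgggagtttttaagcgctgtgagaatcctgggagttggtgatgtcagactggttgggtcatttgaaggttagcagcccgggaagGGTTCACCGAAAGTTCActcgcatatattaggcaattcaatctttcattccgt
The element is a direct repeat of 2 hexamers spaced by 5 bases, at positions -53 to -37 from the start. Windows of 250 bases before to 50 bases after the start were searched on both strands for pairs of AGGTCA or AGTTCA in direct repeat, spaced by 1, 2 or 5 bases. None of the 12 windows of the 6 genes matched in RefSeq's promoter table (Aldh1a1, Aldh1a2, Aldh1a7, Dhrs3, Rarb and Stra6) held such a pair, at any of these spacings. With GGGTCA and GGTTCA also allowed, a widening made after seeing the data, 1 of the 12 held the repeat spaced by 5, that of Rarb, beside 0.0974% of all 32851 windows in the table. GGTTCA is the first hexamer of the Rarb element itself, so the widening fixed this match and nothing is read from that share. Aldh1a3, Rdh10 and Crabp2 have no entry there. Among the other retinoid genes, the window of Cyp26a1 held a repeat on the opposite strand at positions -32 to -16, reading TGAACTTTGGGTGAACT on the gene's strand. With AGGTCA and AGTTCA alone it was 1 of 40 retinoid windows, the 12 above included, to hold the repeat spaced by 5, beside 0.0396% of all windows. A match is a string of letters and no match concerns this window alone.

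Other genes of the pathway were listed by role, though with earlier results of these data known. They were 61 in number, of which 30 were measured. In limma 0 of the 30 had an adjusted p below 0.05 (background 0.0778%), 8 had an unadjusted p below 0.05 (background 19.2%), and limma-voom on recovered reads also called 0. The groups did not overlap for 2 higher and 1 lower gene, beside 4.76% and 6.86% of all genes. The median log2 difference of the 30 was -0.04, beside -0.06 over all genes. The count rested on the libraries used: without knockout 2, 6 of the 30 passed (2 higher, 4 lower), beside 8.05% of all genes. Among the male libraries alone 11 of the 30 passed (6 higher, 5 lower), beside 44.4% of all genes.

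Breakdown of retinoic acid held the largest difference among these genes. Cyp26b1, a cytochrome that clears retinoic acid, read 0.98, 0.25, 0.15 and 0.04 FPKM across controls 1 to 4, from 91, 23, 14 and 4 reads. Across knockouts 1 to 4 it read 7.64, 2.78, 2.46 and 5.01 FPKM, from 753, 266, 247 and 487 reads. All 4 knockouts lay above all 4 controls, with a log2 difference of 1.96 (SE 0.32, limma adjusted p = 0.0724 over all genes), so the call was missed. Its limma adjusted p ranged from 0.0067 to 0.341 over the alternatives and was below 0.05 in 3 of 17. These were the sex covariate and the male libraries alone, which both compare knockout 3 and 4 with the controls, and leaving out knockout 2. Cyp26a1, a second enzyme of this kind, read 0.16 to 2.44 FPKM in the controls and 0 to 0.54 FPKM in the knockouts, highest in control 4 (log2 difference -0.48, limma adjusted p = 0.412). Crabp1 and Cyp26c1 were not among the genes analysed here.

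Fabp5, a fatty acid binding protein that can carry retinoic acid, read 7.39, 1.56, 2.34 and 0.57 FPKM across controls 1 to 4 and 6.08, 11.3, 2.75 and 9.33 FPKM across knockouts 1 to 4 (log2 difference 1.23, limma adjusted p = 0.245). The groups overlapped. The 12 macrophage and leukocyte markers, all measured, had summed levels of 1032, 91, 105 and 119 FPKM across controls 1 to 4 and of 577, 1703, 225 and 1105 FPKM across knockouts 1 to 4, high in the same libraries as Fabp5. Only Itgam was listed at 0, in control 4. Lyz2 was most of the sum in control 1 and knockout 2, at 674.09 and 990.32 FPKM. Cd14 was highest in control 4, at 71.65 FPKM, where Fabp5 was lowest. The part of macrophages in the Fabp5 values was not tested.

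Of genes for uptake, binding and ester storage 4 of 13 were measured and 0 passed. Dgat1, which can esterify retinol, had a log2 difference of 0.30 (limma adjusted p = 0.443), and Scarb1, a scavenger receptor that takes up carotenoids, of 0.35 (limma adjusted p = 0.502). Lrat, the main retinol esterifying enzyme, and Rbp4 were not among the genes analysed here.

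Of other retinol and retinaldehyde oxidoreductases 6 of 17 were measured, with 3 means higher, 3 lower and 0 past the threshold. Dhrs4, a carbonyl reductase that accepts retinaldehyde, was at 10.4 ± 1.64 and 14.4 ± 2.38 FPKM (SD, n = 4; log2 difference 0.42, limma adjusted p = 0.250). Adh1, an alcohol dehydrogenase that oxidises retinol, read 1.48, 3.81, 2.19 and 17.74 FPKM across controls 1 to 4 and 0, 5.46, 1.43 and 2.64 FPKM across knockouts 1 to 4 (log2 difference -0.91, limma adjusted p = 0.469). The proximal tubule marker sum was also highest in control 4, at 41.1 FPKM beside 12.7 to 17.8 FPKM in the other controls, and Slc27a2 of that list was at 0 in control 1 and knockout 1 and 3; the part of those cells was not tested. Rdh13 was at 3.54 and 3.01 FPKM (log2 difference -0.17, limma adjusted p = 0.559). Aldh1b1, a mitochondrial aldehyde dehydrogenase that can use retinaldehyde, was at 2.91 ± 1.13 and 3.14 ± 2.12 FPKM (SD, n = 4; log2 difference -0.01, limma adjusted p = 0.993).

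Receptors and their co-regulators were measured for 10 of 11 genes, with 3 means higher, 7 lower and 0 past the threshold. The coactivator and corepressor genes had the largest differences. Ncor1, a corepressor of unliganded receptors, was at 18.7 ± 2.68 and 10.5 ± 6.16 FPKM (SD, n = 4; log2 difference -0.91, limma adjusted p = 0.197). Knockout 2, at 19.45 FPKM, lay within the control range of 16.07 to 22.42 FPKM, and knockout 1, 3 and 4 were below it. The coactivators Ncoa2 (log2 difference -0.67, limma adjusted p = 0.208) and Ncoa1 (log2 difference -0.63, limma adjusted p = 0.262) likewise had knockout 2 within the control range and the other 3 knockouts below it. The receptor genes Rara, Rarg, Rxra and Rxrb had log2 differences between -0.24 and 0.25.

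Of 13 textbook target genes 6 were measured, with 2 means higher, 4 lower and 0 past the threshold. Tgm2, tissue transglutaminase, read 60.27, 49.24, 46.93 and 74.39 FPKM across controls 1 to 4 and 100.87, 134.58, 111.54 and 124.95 FPKM across knockouts 1 to 4. The groups did not overlap (log2 difference 1.03, SE 0.20, limma adjusted p = 0.0996). Nrip1, a nuclear receptor corepressor gene that retinoic acid induces, went the other way, at 10.02 to 14.41 FPKM in the controls and 2.50 to 8.71 FPKM in the knockouts (log2 difference -1.27, SE 0.30, limma adjusted p = 0.123). Bhlhe40, a transcription factor gene of the circadian clock, was at 119 ± 23.9 and 71.5 ± 15.7 FPKM (SD, n = 4; log2 difference -0.74, limma adjusted p = 0.164).

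**Figure D4:**
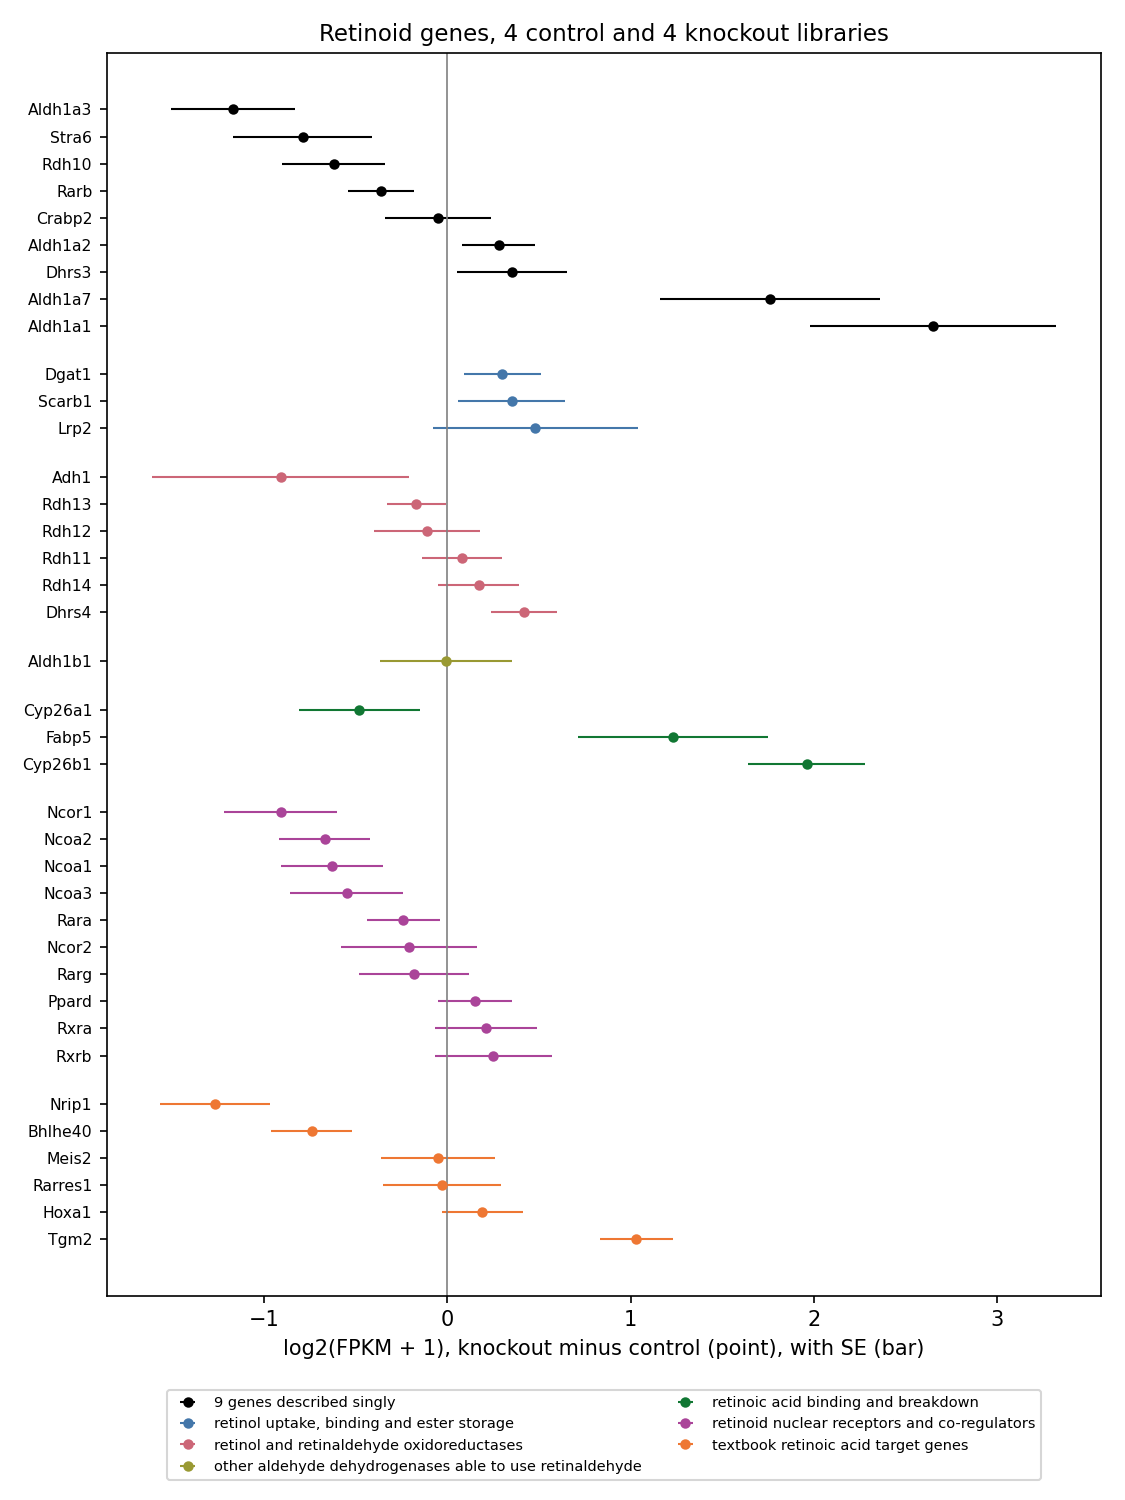
Difference of knockout minus control on the log2(FPKM + 1) scale, with its standard error, for the 9 genes described singly (black) and the other measured retinoid genes by role, 1 of them not drawn. Aldh1a1 (2.65), Cyp26b1 (1.96) and Aldh1a7 (1.76) lie farthest to the right, and Nrip1 (-1.27) and Aldh1a3 (-1.17) farthest to the left.

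Beside the retinoid enzymes, 12 of 14 non-retinoid aldehyde dehydrogenases were measured, with a median log2 difference of 0.10. Aldh2 alone passed (log2 difference -3.61, limma adjusted p = 3.43e-05). Aldh3b1 read 6.32 to 8.15 FPKM in the controls and 8.17 to 18.13 FPKM in the knockouts (log2 difference 0.92, limma adjusted p = 0.147), and Aldh4a1, a proline pathway enzyme gene, 4.58 to 6.77 and 7.04 to 10.82 FPKM (log2 difference 0.61, limma adjusted p = 0.177). Whether the Aldh1a genes differ from this set was not tested.

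Genes whose levels followed those of the retinoid genes most closely were found by Pearson's r of log2(FPKM + 1) over the 8 libraries, among 11009 genes with a standard symbol and a mean of at least 1 FPKM. The points share library, depth and genotype, and r is given as a description. For Aldh1a1 they were Nit2 and Cyb5a (r = 0.978 each) and Dnajc19 (r = 0.977). Cyb5a, cytochrome b5, read 24.35 to 31.27 FPKM in the controls, 80.34 in knockout 1 and 34.64 to 42.19 FPKM in knockout 2 to 4. Aldh1a7 itself reached r = 0.976 with Aldh1a1, and 3 genes had a higher r. For Aldh1a7 the closest were Pdia5 (r = 0.984), Chchd7 (r = 0.981) and Vti1b (r = 0.976).

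For Aldh1a3 the closest were Cd200 and Fbn1 (r = 0.980 each) and Bgn (r = 0.972). Fbn1 and Bgn code for fibrillin and biglycan of the extracellular matrix, and Bgn read 70.53, 18.77, 21.79 and 14.37 FPKM across controls 1 to 4 and 4.96 to 9.85 FPKM in the knockouts. For Rarb they were Slc16a11 (r = 0.988), Creb3l2 (r = 0.974) and Txndc11 (r = 0.967), all highest in control 1 and lowest in knockout 1. For Stra6 they were Kctd1 (r = 0.976), Fbxo2 (r = 0.975) and Gpd1 (r = 0.969), all low in knockout 1 and 2. Rdh10 was followed most closely by Aph1c (r = 0.967), Dhrs3 by Plekhb1 (r = 0.982) and Aldh1a2, less closely, by the ribosomal pseudogene Rpl9-ps6 (r = 0.911). Crabp2 lay below the level set for this search.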

How the data were processed

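RNA from 8 cultures was sequenced, 4 control and 4 knockout by the sample titles. Per the submitters' processing notes FastQC, STAR 2.4.1d and DESeq2 were used with GRCm38; the counter, annotation and row filter: not given in the sources used here. For 14145 genes the authors deposited 1 value per library, under a name that speaks of counts, but the values carry decimals and scale with gene length, and were taken as the authors' FPKM. Per the file headers, the deposited table adds the authors' own log2 fold changes with p-values, raw and adjusted. No value column lacked a sample (0 columns).

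Multiplied by exon-union length in GENCODE M21 (14134 genes), 95.8% to 96.5% of values of 1 to 200 reads fell within 0.05 of a whole read, against 10.7% to 12.5% with a wrong step, which gave depths and reads. Read numbers limit precision through counting error only. Tests used limma 3.58.1 in R 4.3.3 on log2(FPKM + 1) with a variance trend over all genes and libraries, with genotype alone in the model and a Benjamini-Hochberg threshold of 0.05; this scale understates changes of low genes. The script was tested on simulated data. Python 3.11.15, pandas 2.3.3 and Biopython 1.88 handled tables and sequences. Promoter sequences are RefSeq's (GRCm38.p6).

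The 9 genes and the lists were chosen with earlier results of these data known. Up to 3 genes per list, by lowest p, are named with their full statistics, and receptor genes in addition by range. Pathway genes not among those analysed are named only. Of the listed genes, 1 is counted but not reported here by name or value. Alternatives were pseudocounts of 0.1 and 0.5, a filter of at least 1 FPKM in at least 4 libraries, sex as a covariate, male libraries only, median-ratio scaling, leaving out knockout 3 and 4 together, the replicate number as block, limma-voom on recovered reads and leaving out each library.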

Additional observations from a re-analysis of the deposited data

Results flagged for a closer look

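Single libraries stood apart from the other 3 of their group in 7 of 56 groups examined, by a gap to the nearest library that passed the limit of Dixon's test. That limit passes about 1 group in 20 for independent, normally spread values. These groups share libraries and hold untransformed FPKM of chosen genes, so the 7 cannot be set against that rate. Knockout 1 was high for Aldh1a1 (54.4 FPKM) and Aldh1a7 (23.7 FPKM) and low for Aldh3b1 (8.17 FPKM). Control 4 was high for Adh1 (17.7 FPKM), Cyp26a1 (2.44 FPKM) and Aldh4a1 (6.77 FPKM). Control 1 was high for Rarb (1.84 FPKM).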

How the results depend on the processing

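Over all genes 11 passed, and the count moved to 3 with a pseudocount of 0.1, 7 with limma-voom, 4838 with a sex covariate and 6275 among the male libraries alone. It lay between 1 and 1139 when 1 library was left out, the highest without knockout 2. Of the other retinoid genes 0 passed, against 9 with a sex covariate, 11 among male libraries alone and 0 to 6 with 1 library left out (6 without knockout 2). With the replicate number as a block, 1 gene passed over all and 0 of the other retinoid genes. Deviations of same-numbered libraries correlated at 0.05, -0.21, 0.60 and -0.05, so the numbers were not taken as pairs.

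All 17 alternatives kept the sign of the log2 difference for Aldh1a1 (1.85 to 4.05), Aldh1a7 (0.91 to 2.76), Stra6 (-1.48 to -0.10) and Dhrs3 (0.01 to 0.69), and all 16 that kept Aldh1a3 did so (-2.97 to -0.80). Crabp2 changed sign in 4 of 16 (-0.38 to 0.28). Without knockout 3 and 4, Dgat1 turned to -0.04 and Scarb1 to -0.07. Aldh1b1 turned to 0.06 with median-ratio scaling, to 0.49 with a sex covariate and among male libraries alone, and ranged from -0.31 to 0.26 with 1 library left out (0.02, 0.16, 0.26 and 0.06 without control 1, control 3, knockout 1 and knockout 2). The cause was not tested. Low read numbers limit Crabp2, Cyp26a1, the knockout levels of Aldh1a3 and the control levels of Aldh1a1, Aldh1a7 and Cyp26b1.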
